A study of Mus musculus with 2 samples.

Results

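The insulin-like growth factor (IGF) genes described here are 10 of the 31053 features counted in E13.5 mouse eyecups: the ligands Igf1 and Igf2, the receptors Igf1r and Igf2r, and the binding proteins Igfbp2, Igfbp3, Igfbp4, Igfbp5, Igfbp7 and Igfbpl1. They were taken by their symbols, from a list chosen with earlier results of these data known. All 10 had at least 1 UMI (unique molecular identifier, a counted RNA molecule) in both libraries. One library came from littermate control eyecups of the genotype Six3+/-;Six6+/-, so that the control cells also lacked a copy of each transcription factor gene. The other came from double knockout (DKO) eyecups of the genotype Six3F/F;Six6-/-;a-Cre, in which Six6 is deleted in every cell but Six3 only where a-Cre was active, in the peripheral retina. DKO retinas therefore mix cells with and without Six3. The DKO embryo was picked by GFP+ rosettes in the retinas, its control littermate by the absence of GFP. Each library held the eyecups of 1 embryo with retina, lens and blood, so no difference between the genotypes could be tested, and all intervals below are 95% intervals that cover counting error only.

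IGF1 and IGF2 are secreted growth factors that act through the receptor tyrosine kinase IGF1R, which drives growth, survival and proliferation. IGF2R has no kinase and carries IGF2, together with enzymes tagged with mannose 6-phosphate, to the lysosome. The IGF-binding proteins hold IGFs outside the cell and either prolong their presence or keep them from the receptor, whereas IGFBP7 and IGFBPL1 are related secreted proteins with weak or little-studied IGF binding. In the eye, IGF and insulin are known for driving lens epithelial cells toward fiber cells and for supporting retinal progenitors.

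Among the members, Igfbp5 and Igfbp2 are neighbours and Igfbp7 stands alone in the genome, and these promoters are shown because the results turn on Igfbp5 and Igfbp7 and because Igfbp2 shares its neighbourhood with Igfbp5 but not its pattern. Igfbp2 (chr1:72824503-72852474, plus strand, mm10) and Igfbp5 (chr1:72857932-72874884, minus strand) point toward each other with 5458 bases between their ends. Igfbp7 lies at chr5:77349240-77408041 on the minus strand, where Polr2b and Gm34648 overlap it in antisense. The 250 bases before the start site, from RefSeq's table for GRCm38.p6, are printed 5′ to 3′ on the gene's strand with each CG dinucleotide in capitals.

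Igfbp5 promoter, chr1:72874866-72875115: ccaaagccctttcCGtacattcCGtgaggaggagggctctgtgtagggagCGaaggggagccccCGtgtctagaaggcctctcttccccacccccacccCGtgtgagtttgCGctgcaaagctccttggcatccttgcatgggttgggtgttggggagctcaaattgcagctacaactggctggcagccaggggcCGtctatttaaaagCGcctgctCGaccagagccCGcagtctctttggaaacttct
Igfbp2 promoter, chr1:72824230-72824479: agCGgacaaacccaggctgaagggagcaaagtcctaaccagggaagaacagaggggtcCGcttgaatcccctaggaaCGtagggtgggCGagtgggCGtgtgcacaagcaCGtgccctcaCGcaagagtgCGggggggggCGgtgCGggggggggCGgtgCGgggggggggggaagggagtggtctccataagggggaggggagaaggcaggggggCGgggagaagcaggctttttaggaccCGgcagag
Igfbp7 promoter, chr5:77408046-77408295: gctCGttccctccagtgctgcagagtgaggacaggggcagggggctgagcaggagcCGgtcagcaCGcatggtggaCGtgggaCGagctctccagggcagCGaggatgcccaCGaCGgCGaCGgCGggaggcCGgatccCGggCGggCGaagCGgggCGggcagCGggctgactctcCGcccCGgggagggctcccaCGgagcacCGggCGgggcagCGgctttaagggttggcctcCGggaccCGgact

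The Igfbp7 window held 26 CG dinucleotides and 74% G and C, the Igfbp2 window 14 and 67.2%, and the Igfbp5 window 10 and 58.8%, against a median of 52.4% G and C over 32851 promoters. None of these windows held TAATTA (a homeodomain core), TGATAC (the core bound by Six3 and its relatives) or TATAAA on either strand. Of all promoters, 4.84%, 4.64% and 12.4% held these letters on either strand, and none of the motifs lies within another. In the 13 windows found for 9 members (Igfbpl1 was not matched), TGATAC was found once, at Igfbp3, and TATAAA once, at Igfbp4.

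Cells were clustered without the members and without Six3 and Six6, and clusters were named from marker genes, with the word like (19 clusters of 9822 control and 12146 DKO cells). The named classes were lens-like cells (409 control and 401 DKO cells), margin or pigment epithelium-like cells (1062 and 1231), naïve progenitor-like cells (2068 and 2074), neurogenic progenitor-like cells (1437 and 1718), ganglion-like cells (1057 and 2248), amacrine or horizontal-like cells (126 and 194), photoreceptor-like cells (78 and 112), macrophage-like cells (55 and 162) and red blood-like cells. Cluster 1 had all 10 naïve markers above the other cells but an endothelial gene among its leading genes, so that it stayed unnamed. Cluster 3, of low-RNA cells, and cluster 10, of 1 control and 798 DKO cells, stayed unnamed because no marker list was high enough in them. All 11 lens markers, 15 margin or pigment epithelium markers and 9 macrophage markers were found in their class in both libraries. The libraries held 85589515 and 85173276 UMIs, the median kept cell had 7620 UMIs in the control and 5879 in the DKO library, and 20 kept cells of each library had a barcode found in both. Six6, deleted in the DKO, fell from 361 to 47.1 UMIs per 1000000 UMIs (CPM) in naïve-like cells, whereas Six3 went from 316 to 233 CPM there and from 164 to 255 CPM in lens-like cells. The deletion removes exon 1 of Six3 while tags come from the 3′ end, so that the tags do not read the deleted part. From bulk RNA-seq the paper reports that 3′ coverage also fell in compound-null retinas. It marks Six3-deficient cells by their lowered Six3 mRNA and by reads mapped to the Cre vector. Its differential expression compares Cre-positive DKO cells with control cells. The split by Six3 level used below does not use Cre reads. As levels are UMIs of a gene per 1000000 UMIs of a group, counted at the 3′ end, they do not depend on transcript length.

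The abundant binding proteins peaked in different classes of the control library, and the ligands had few UMIs, of which those of Igf2 cannot be read as a level (heatmap of levels). Igfbp7 was nearly restricted to the lens, Igfbpl1 peaked in ganglion-like cells, Igfbp2 in neurogenic-like cells and Igfbp5 in amacrine or horizontal-like cells, while Igf1r and Igfbp4 were broad. In the DKO library the highest class was another one for Igfbp5, from amacrine or horizontal-like to lens-like cells, for Igfbp4, from margin-like to macrophage-like cells, and for the sparse Igfbp3, from lens-like (1.47 CPM, 7 UMIs) to margin-like cells (2.35 CPM, 24 UMIs) with overlapping intervals.

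**Figure D1:**
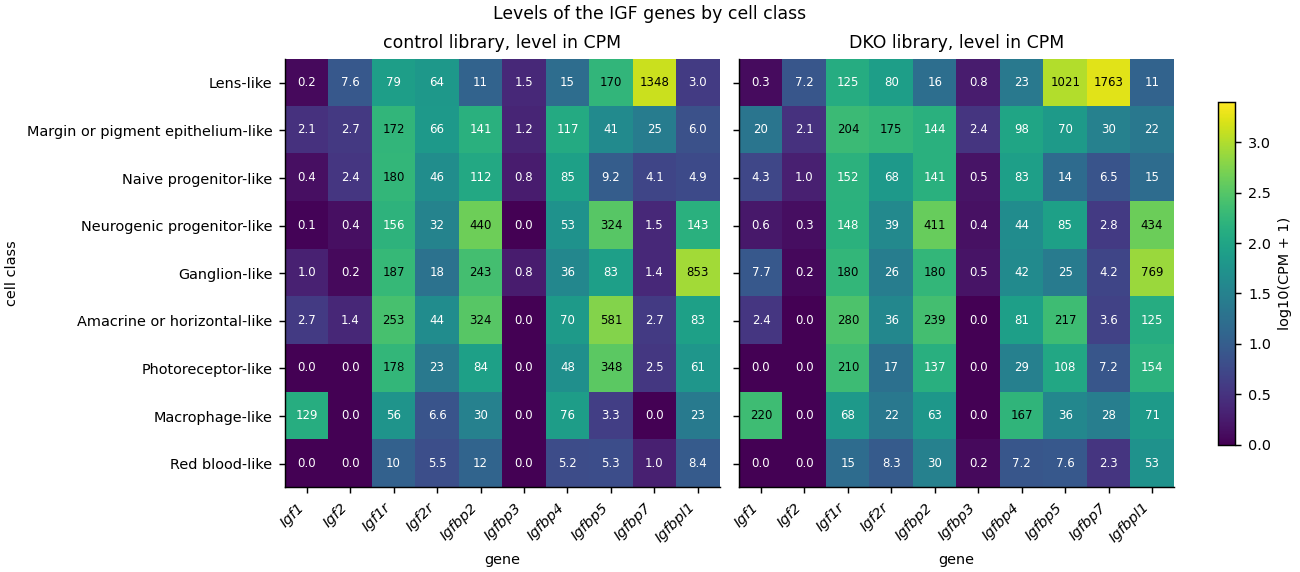
Level of each IGF gene (columns) in each cell class (rows) in the control (left) and DKO library (right), with the CPM printed in each cell and the colour giving log10(CPM + 1). Igfbp7 and, in the DKO, Igfbp5 stand out in the lens-like row. The red blood-like row was used as a background level and pools clusters 8, 11 and 12, of which low-RNA cluster 12 gave most of the Igfbpl1 of this row.

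Igf1, the ligand made by macrophages and other supporting cells, was found in few retinal cells of the control library and in more of the DKO library. The control library held 103 Igf1 UMIs in all its cells and the DKO library 640. In kept cells, macrophage-like cells gave 47% of the control UMIs, whereas margin or pigment epithelium-like cells gave the largest share in the DKO, 33.2%. The level in macrophage-like cells was 129 CPM (92 to 177) in the control and 220 CPM (187 to 257) in the DKO library, a log2 ratio of 0.77 (0.25 to 1.31).

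Outside macrophages, the Igf1 level was higher in the DKO library in margin-like, naïve-like and ganglion-like cells. In margin-like cells it was 2.07 CPM (20 UMIs) in the control and 19.8 CPM (202 UMIs) in the DKO library, a log2 ratio of 3.25 (2.59 to 3.99). In naïve-like cells it went from 0.373 CPM (9 UMIs) to 4.29 CPM (92 UMIs), with 84 of the 92 DKO UMIs in cluster 0. In ganglion-like cells it went from 1.04 to 7.72 CPM, with 102 of 134 DKO UMIs in cluster 7. Neurogenic-like cells (1 and 6 UMIs), lens-like cells (1 and 1) and photoreceptor-like cells (0 and 0) had almost none. Red blood-like cells had 0 in both libraries, with upper limits of 0.372 CPM in the control and 0.854 CPM in the DKO. Markers of other states moved with these values, and their part was not tested. In margin-like cells the 15 margin or pigment epithelium markers summed to 1113 and 3353 CPM and the 10 naïve markers to 3482 and 1726 CPM. In naïve-like cells the margin or pigment epithelium markers summed to 277 and 616 CPM (14 of 15 higher in the DKO library, Slc45a2 at 0 in the control) and the naïve markers to 5070 and 3652 CPM. In ganglion-like cells the margin or pigment epithelium markers summed to 90.8 and 214 CPM.

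In cells thinned to 2000 UMIs, an Igf1 UMI was found in 0.475% of margin-like control cells (0.154 to 1.11) and in 3.24% of margin-like DKO cells (2.32 to 4.41). Of red blood-like cells, 0 of 1126 control and 0 of 603 DKO cells had one, at median depths of 8562 and 6523 UMIs against 8043 and 6792 UMIs in the margin-like cells used. The summed level of the 9 macrophage markers in margin-like cells was 2.07 CPM in the control and 4.6 CPM in the DKO library, with C1qb and Tyrobp at 0 in the control. DKO margin-like cells held 430 Igf1 UMIs per 100 macrophage marker UMIs, against 2.43 per 100 in DKO macrophage-like cells (scatter plot of Igf1 and macrophage markers). The mesenchymal cells within the margin-like class, described further on, held 15 of the 202, and without them the log2 ratio was 3.24. It was 2.25 when the libraries were merged without integration. Gpr183, Arhgap30 and Irf5 were the genes most like Igf1 over control clusters (r = 0.955, 0.954 and 0.946, and 0.751, 0.705 and 0.696 over DKO clusters).

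**Figure D2:**
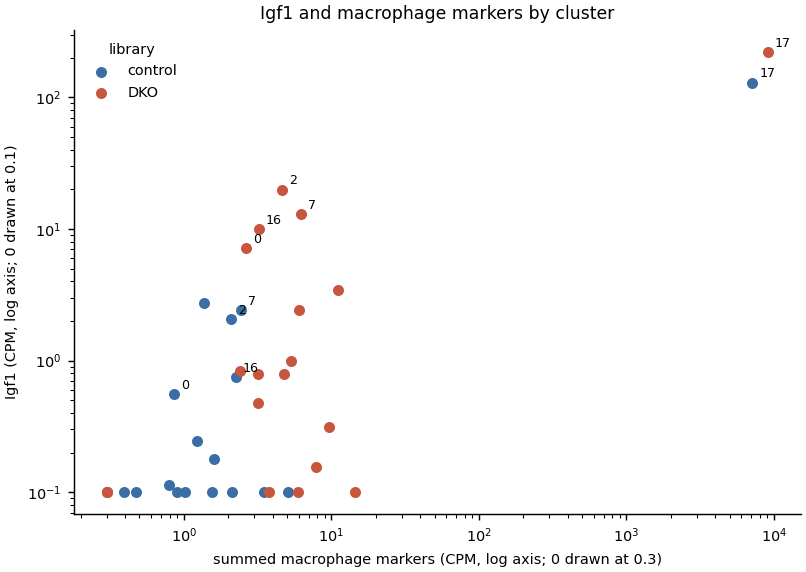
Igf1 level against the summed level of 9 macrophage markers, both in CPM on log axes, with 1 point per cluster of at least 50 cells and library, and with values of 0 drawn at the axis limits given. DKO clusters 0, 2, 7 and 16 (the last with 88.7% called doublets) lie above all clusters but 17 at 7.11 to 19.8 CPM of Igf1 while their macrophage markers stay at 2.62 to 6.24 CPM, far from macrophage-like cluster 17.

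Within the DKO library Igf1 was concentrated in a few subclusters. When DKO cells were clustered alone, the macrophage-like subcluster 23 held 220 CPM and subcluster 26 (32 cells, 31 of them margin-like) 77.4 CPM (44.3 to 126). Of the larger subclusters, subcluster 1 (952 cells, 931 of them margin-like) held 22.7 CPM (19.5 to 26.2), subcluster 12 (415 cells, all from ganglion-like cluster 7) 21.7 CPM, and subcluster 9 (501 cells, 474 from naïve-like cluster 0) 12.8 CPM, followed by subcluster 21 (225 cells, 218 from ganglion-like cluster 16, of whose cells 88.7% were called doublets) with 9.89 CPM. Naïve-like subcluster 7 held 0.369 CPM, subcluster 6 0.289 CPM. For each class, DKO subclusters with under 50% of the Six3 level of its control cells were taken as Six3-low. In margin-like cells these include subcluster 26 (Six3 at 33.9 CPM), whose 32 cells and 13 Igfbp3 UMIs match the mesenchymal DKO cells described further on. Whether its low Six3 reflects the deletion was not tested. Naïve-like DKO cells of Six3-low subclusters (911 cells, Six3 at 114 CPM) had 0.632 CPM of Igf1, and the other 1163 cells (Six3 at 328 CPM) had 7.2 CPM. Against control naïve-like cells this was a log2 ratio of 0.76 (−1.01 to 2.41) in the Six3-low cells and 4.27 (3.28 to 5.45) in the others. The 86 UMIs of the others stand beside 81 UMIs in subcluster 9, whose Six3 level of 175 CPM lies just over the 50% limit and under the 316 CPM of control naïve-like cells, whereas subcluster 7 had 519 CPM of Six3. The split at 50% therefore does not set cells with reduced Six3 against cells with the control level.

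For Igf2, the main fetal ligand, the counts cannot be read as a level. The control library held 152 and the DKO library 84 Igf2 UMIs, and lens-like cells had the highest level, 7.57 CPM (5.31 to 10.5) and 7.16 CPM (4.68 to 10.5). Naïve-like cells had 58 and 21 UMIs, a log2 ratio of −1.30 (−2.09 to −0.55) that was −0.09 when the libraries were merged without integration. In the GENCODE annotation the gene Gm49394 lies on the same strand and shares 997 of the last 1000 exonic bases of Igf2, where 3′ reads fall, and Gm49394 had 0 UMIs in both libraries. Reads that fit both genes are commonly left uncounted. How the authors' counting treated them is not given in the sources used here. H19, the imprinted gene next to Igf2, Pitx3 and Aldh1a7 were the genes most like it over the 18 control clusters (Pearson r = 0.919, 0.877 and 0.875), and their correlations over 19 DKO clusters were 0.822, 0.855 and 0.928.

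Igf1r, the signalling receptor, was the most even member. Over the 8 classes it ranged from 56.4 CPM (macrophage-like) to 253 CPM (amacrine or horizontal-like) in the control, and from 68.3 to 280 CPM in the DKO library, in the same classes. In the control, the levels of ganglion-like (187 CPM), naïve-like (180), photoreceptor-like (178) and margin-like cells (172) overlapped their neighbours in this order within counting error. Over the classes, the log2 ratios lay between −0.24 in naïve-like and 0.67 in lens-like cells, and no class passed 2-fold. In margin-like DKO cells the ratio was −0.40 (−0.60 to −0.21) in Six3-low cells, which include the mesenchymal-like subcluster 26, and 0.36 (0.27 to 0.46) in the others. In naïve-like DKO cells it was −0.45 (−0.54 to −0.36) and −0.10 (−0.17 to −0.02) in the same order.

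The lens-like value of Igf1r moved with the crystallin content of the cells. The level was 78.7 CPM (70.9 to 87.1) in control and 125 CPM (114 to 137) in DKO lens-like cells. In lens-like cluster 13 it fell from 147 CPM in control cells with under 3% crystallin UMIs to 29.7 CPM in those with 15% or more, and lens-like cells with under 6% crystallin UMIs had a log2 ratio of 0.16. The genes with the most similar pattern over control clusters were Ep300, March6 and Socs7 (r = 0.990, 0.985 and 0.985, and 0.978, 0.969 and 0.929 over DKO clusters).

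Igf2r, the clearing receptor, was the receptor past 2-fold in margin-like cells, where it was highest in the DKO library. Its level was 65.7 CPM (60.6 to 71) in control and 175 CPM (167 to 183) in DKO margin-like cells, a log2 ratio of 1.41 (1.28 to 1.54) that was 0.99, just under 2-fold, when the libraries were merged without integration. Airn, an antisense transcript of the imprinted Igf2r locus, overlaps it. Lens-like cells had 63.8 CPM (56.8 to 71.4) and 79.9 CPM, which in the control overlaps the margin-like level and is 72 CPM (64 to 80.7) in cluster 13 alone, and naïve-like cells 45.9 and 67.8 CPM. Of 18 clusters with a ratio, 9 had an interval above 0 and 0 had one below 0.

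The higher Igf2r level was found in Six3-low and in other DKO margin-like cells. Six3 was at 87.6 CPM in the Six3-low and at 162 CPM in the other cells, both under the 234 CPM of the control. The Six3-low cells (264 cells, 220 CPM) had a log2 ratio of 1.75 (1.57 to 1.93) and the other 967 cells (164 CPM) one of 1.32 (1.18 to 1.46). Among the Six3-low cells were 31 of the mesenchymal-like subcluster 26, which had 194 CPM (138 to 264) of Igf2r. The share of margin-like cells with an Igf2r UMI after thinning went from 12.1% (10.2 to 14.2) to 24.7% (22.3 to 27.2), against 0.622% and 1.16% of red blood-like cells. All 15 markers of the margin and pigment epithelium were higher in the DKO library too, from 1113 to 3353 CPM in sum, and their part in the difference was not tested. The genes most like Igf2r over control clusters were Fat1, Tenm3 and Fat4 (r = 0.935, 0.904 and 0.902, and 0.939, 0.884 and 0.812 over DKO clusters), the first and last being large cadherins.

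Igfbp5, which binds IGFs in the extracellular matrix, was higher in lens-like and lower in neurogenic-like and neuron-like cells of the DKO library (plot of Igfbp5 by cluster). In lens-like cells its level was 170 CPM (159 to 183) in the control and 1021 CPM (988 to 1054) in the DKO library, a 5.99-fold difference (log2 ratio 2.58, 2.47 to 2.69). In neurogenic-like cells it was 324 CPM (313 to 335) and 85.1 CPM (79.3 to 91.3), a log2 ratio of −1.93 (−2.04 to −1.82). The library totals were almost the same, 79.5 and 79.7 CPM, because neurogenic-like cells gave 54.4% of the control UMIs and lens-like cells 57.3% of the DKO UMIs.

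All 4 neuronal or neurogenic classes had less Igfbp5 in the DKO library. Amacrine or horizontal-like cells went from 581 CPM (527 to 639), the highest control level, to 217 CPM (187 to 251), photoreceptor-like cells from 348 to 108 CPM, and ganglion-like cells from 82.7 to 25.2 CPM. Each single cluster of these classes shared the direction. Neurogenic-like clusters 4 and 9 went from 446 to 102 and from 190 to 48.8 CPM, and ganglion-like clusters 6, 7 and 16 from 111 to 35.5, from 50.6 to 10.2 and from 73.1 to 41.8 CPM, where 88.7% of the cells of cluster 16 were called doublets. Of the DKO cells, 97.3% of neurogenic-like and 99.2% of ganglion-like cells were outside the Six3-low subclusters, and these had log2 ratios of −1.91 and −1.85. Their Six3 levels were 278 and 692 CPM, against 304 and 702 CPM in the control. As the split goes by the level of a subcluster, it cannot tell cells with and without Six3 apart within one. The paper reports lower Igfbp5 in Cre-positive DKO than in control cells of clusters it used for ganglion cell differentiation, including its DKO-only cluster.

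**Figure D3:**
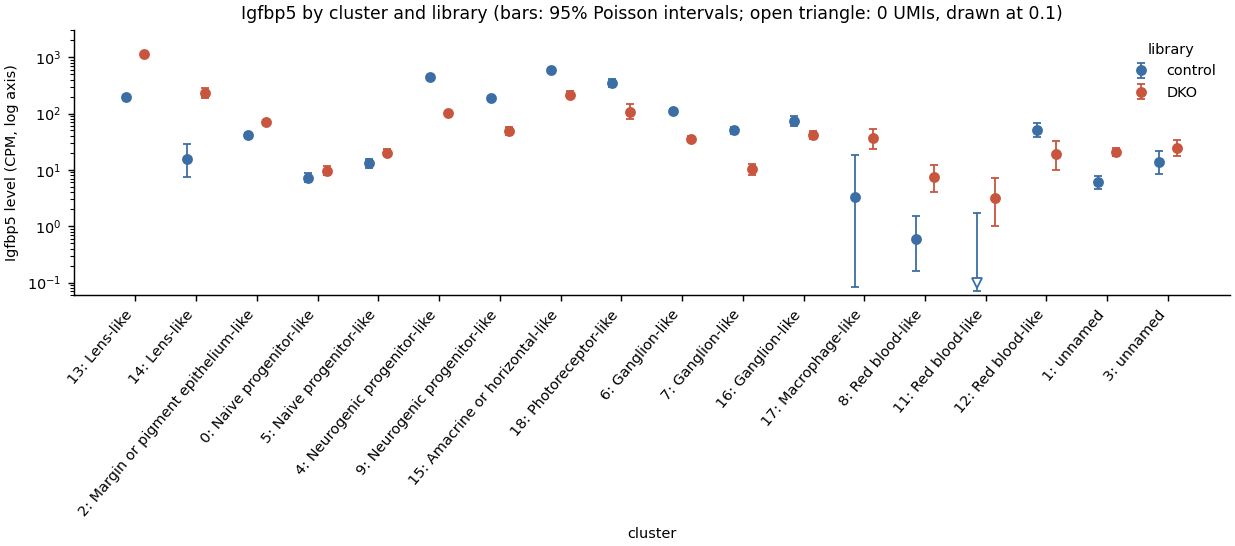
Igfbp5 level in CPM on a log axis in each cluster with at least 50 cells of both libraries, with 95% Poisson intervals and an open triangle for 0 UMIs. Lens-like clusters 13 and 14 are higher in the DKO library (195 to 1127 and 15.6 to 235 CPM), and all neurogenic-like, amacrine or horizontal-like, photoreceptor-like and ganglion-like clusters are lower.

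In thinned cells, an Igfbp5 UMI was found in 15.9% of control (11.9 to 20.5) and 53.5% of DKO lens-like cells (47.8 to 59.1), and in 34.6% of control (32.1 to 37.1) and 10.4% of DKO neurogenic-like cells (8.98 to 12). Red blood-like cells had one in 0.622% and 0.829%. The lens-like cells used had median depths of 13215 and 9478 UMIs before thinning, after 113 control and 87 DKO cells with under 2000 UMIs were left out. Per 10000 UMIs, the median of these lens-like cells had 0 Igfbp5 UMIs in the control and 4.37 in the DKO library, and the 95th percentile was 12 and 50.9.

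Igfbp5 was highest in lens-like cells with little crystallin RNA (bar charts by crystallin share). In cluster 13, control cells with under 3% of their UMIs from 16 crystallin genes had 512 CPM (475 to 551), those with 3 to 6% had 110 CPM, those with 6 to 15% had 10.6 CPM, and those with 15% or more had 0 UMIs. DKO cells had 1856 CPM (1782 to 1932) under 3%, 905 CPM at 3 to 6% and 135 CPM at 6 to 15%. The log2 ratio within these ranges was 1.86 (1.74 to 1.98), 3.04 (2.69 to 3.41) and 3.67 (2.62 to 4.94).

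Crystallins themselves differed between the libraries. The lens markers, mostly crystallins, summed to 113513 CPM in control and 47862 CPM in DKO lens-like cells, and cluster 13 held 45 control but 4 DKO cells with 15% or more crystallin UMIs. Markers of other cell types moved too. In lens-like cells the margin or pigment epithelium markers summed to 173 and 376 CPM (11 of 15 higher in the DKO library). Mesenchyme or pericyte markers summed to 62.3 and 119 CPM and macrophage markers to 1.26 and 8.54 CPM. Neurogenic markers (401 and 350 CPM) and red blood markers (8269 and 6921 CPM) were lower in the DKO library. Their part in the Igfbp5 difference was not tested. A range of crystallin share, set after the values were seen, is not a cell type, and 33 control and 101 DKO cells lay within 0.5 points of the 3% limit. In all lens-like cells with under 6% crystallin UMIs the log2 ratio of Igfbp5 was 1.81, below 2.58 but still over 2-fold.

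**Figure D4:**
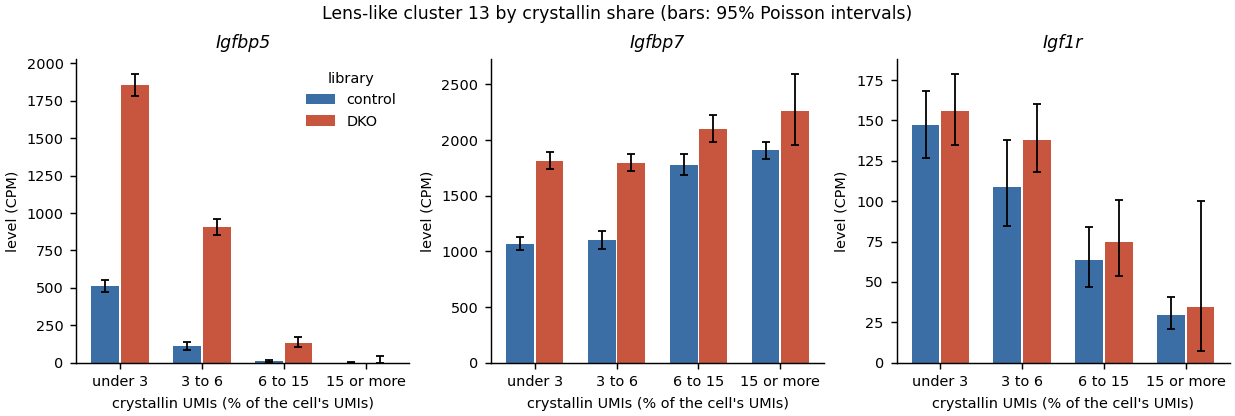
Level in CPM of Igfbp5, Igfbp7 and Igf1r in lens-like cluster 13, with cells grouped by the share of their UMIs from crystallin genes and bars giving 95% Poisson intervals. Igfbp5 falls from 512 and 1856 CPM to 0 with rising crystallin share, Igfbp7 is high in all ranges, and the last DKO bar rests on 4 cells.

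In margin-like and naïve-like cells Igfbp5 was low and somewhat higher in the DKO library, at 40.8 and 70 CPM and at 9.16 and 14.4 CPM, so neither passed 2-fold, and the margin-like log2 ratio of 0.78 was −0.23 when the libraries were merged without integration. Naïve-like DKO cells of Six3-low subclusters had 20.1 CPM and a log2 ratio of 1.13 (0.85 to 1.42), whereas the other naïve-like DKO cells had 9.8 CPM and 0.10 (−0.24 to 0.43). Cluster 1 showed the split more sharply, with 40.1 CPM in 592 Six3-low cells and 2.11 CPM in the other 650, against 6.09 CPM in the control. The most similar genes over control clusters, Trim9, Btbd17 and Setbp1, correlated at r = 0.932, 0.904 and 0.899, but at 0.263, 0.502 and 0.397 over DKO clusters.

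Igfbp7, a secreted relative of the binding proteins, was the lens member. Lens-like cells gave 93.9% of the control and 90.8% of the DKO UMIs. Their level was 1348 CPM (1315 to 1381) in the control and 1763 CPM (1720 to 1807) in the DKO library, a log2 ratio of 0.39 (0.34 to 0.44) that moves to 0.22 when hemoglobin, mitochondrial and crystallin UMIs are left out of the totals. Margin-like cells came next in both libraries with 25.4 and 30.1 CPM, a log2 ratio of 0.25 that was −1.32 when the libraries were merged without integration, and no progenitor-like or neuron-like class exceeded 7.23 CPM.

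In contrast to Igfbp5, Igfbp7 was kept in the crystallin-rich cells of cluster 13. In cluster 13 it was 1069 CPM in control cells with under 3% crystallin UMIs and 1908 CPM in those with 15% or more. In DKO cells it was 1815 CPM already under 3%, a log2 ratio of 0.76 (0.67 to 0.86), and the ratio was 0.24 in cells with 6 to 15%. Lens-like cluster 14, of low-RNA cells with crystallins as leading genes, held less Igfbp7. It had 352 of 640280 UMIs in the control and 429 of 434383 in the DKO library. Of the DKO cells clustered alone, subcluster 24 (142 of 145 cells from cluster 14) had 938 CPM (850 to 1033). Subcluster 18 (256 of 260 cells from cluster 13) had 1863 CPM (1817 to 1911). After thinning, 83.8% of control and 91.7% of DKO lens-like cells had an Igfbp7 UMI, against 0.0888% and 0.663% of red blood-like cells. Its closest genes over control clusters were Ogn, Pitx3 and Hspb2 (r = 0.970, 0.959 and 0.957, and 0.923, 0.961 and 0.918 over DKO clusters), of which Pitx3 is a lens transcription factor.

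Elsewhere Igfbp7 rested on few UMIs. Ganglion-like cells had 14 control and 72 DKO UMIs (1.45 and 4.15 CPM), past 2-fold, but 37 of the 72 came from cluster 16 and the log2 ratio of 1.52 was 0.54 without called doublets. Macrophage-like cells had 0 and 20 UMIs, 2.8-fold higher in the DKO library if the control is set at a floor of 3 UMIs. The levels were 0 CPM (0 to 12.2) and 27.9 CPM (17 to 43). Lens markers summed to 431 and 706 CPM there, and the part of lens RNA in this was not tested.

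Igfbpl1, a binding protein-like gene known from newborn neurons, was the member with the most DKO UMIs. The library totals were 10269 UMIs in the control and 25005 in the DKO library. Ganglion-like cells held 853 CPM (834 to 871) in the control and 769 CPM (756 to 782) in the DKO, a log2 ratio of −0.15. Cluster 10, with 798 cells almost only from the DKO library and Tbr1, Rspo3, Lhx9 and Eomes among its leading genes, had the highest level of all clusters, 1664 CPM (1623 to 1705).

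Neurogenic-like cells held 143 CPM (136 to 151) of Igfbpl1 in the control and 434 CPM (421 to 447) in the DKO library, a log2 ratio of 1.60 (1.51 to 1.69). Clusters 4 and 9 shared this, from 222 to 572 and from 57.1 to 144 CPM. The share of these cells with a UMI after thinning went from 21.4% (19.3 to 23.6) to 44.9% (42.4 to 47.3). Igfbpl1 thus differed upward in the neurogenic-like cells in which Igfbp5 differed downward. In these cells the ganglion markers summed to 1239 and 1464 CPM (8 of 13 higher in the DKO library). The neurogenic markers summed to 6062 and 4871 CPM (5 of 10 higher). Their part in either difference was not tested.

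Igfbpl1 was much lower in the other classes. Lens-like cells had 2.95 and 11 CPM, naïve-like cells 4.89 and 14.8 CPM, margin-like cells 6.02 and 22.2 CPM and macrophage-like cells 23.2 and 71.1 CPM, each past 2-fold. Red blood-like cells, which should lack it, had 8.38 CPM in the control and 53 CPM in the DKO library. Most of this came from low-RNA cluster 12 (78.5 and 315 CPM), of whose cells 21.9% were called doublets. Red blood-like cluster 8 had 1.17 and 2.95 CPM and cluster 11 0.476 and 4.37 CPM. In lens-like, naïve-like and margin-like cells both libraries lay under the red blood-like level of the same library, but above clusters 8 and 11 alone. No ratio was left when the red blood-like level was subtracted, and the part of free RNA in these values was not tested. With the subtraction the macrophage-like log2 ratio was 0.28, whereas the neurogenic-like ratio was 1.5 and that of photoreceptor-like cells (60.9 and 154 CPM) 0.95. The genes most like it over control clusters were the ganglion cell genes Ebf3 and Ebf1 (r = 0.974 and 0.961, and 0.958 and 0.935 over DKO clusters) and Smpd3 (r = 0.965 and 0.924).

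Igfbp2, a binding protein of fetal tissues and neural progenitors, differed little in the class where it was highest. Neurogenic-like cells held 440 CPM (428 to 453) in the control and 411 CPM (398 to 425) in the DKO library. Amacrine or horizontal-like cells (324 and 239 CPM) and ganglion-like cells (243 and 180 CPM) followed in both libraries, and lens-like cells were last with 11.2 and 16 CPM, beside 11.6 and 30.1 CPM in red blood-like cells, of which low-RNA cluster 12 held 108 and 153 CPM and clusters 8 and 11 held 0.874 to 9.99 CPM. In naïve-like cells it was 112 CPM in the control, 188 CPM in Six3-low DKO cells (log2 ratio 0.75, 0.66 to 0.83) and 103 CPM in the other DKO cells (−0.12, −0.21 to −0.02). Cluster 1 gave 118, 253 and 131 CPM in the same order. Mex3b, Sox11 and Rnf165 were most like it (r = 0.967, 0.965 and 0.958, and 0.937, 0.916 and 0.919 over DKO clusters).

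Igfbp4, the binding protein cleaved by the protease PAPP-A, was spread over margin-like (117 and 97.7 CPM), naïve-like (84.7 and 82.8 CPM) and amacrine or horizontal-like cells (69.8 and 80.8 CPM). Naïve-like DKO cells of Six3-low subclusters had 55.9 CPM (log2 ratio −0.60, −0.74 to −0.46). The other naïve-like DKO cells had 104 CPM (0.30, 0.20 to 0.40). Cluster 1 gave 60.1 and 102 CPM in the same order, against 93.9 CPM in the control. Of the classes compared Igfbp4 was lowest in lens-like cells (15.4 and 22.9 CPM), above the 5.15 and 7.18 CPM of red blood-like cells. Macrophage-like cells went from 76.3 CPM (48.3 to 114) to 167 CPM (139 to 200), a log2 ratio of 1.13 (0.48 to 1.84) from 23 and 120 UMIs that was 0.91 when the libraries were merged without integration. In these cells ganglion markers summed to 212 and 782 CPM and margin or pigment epithelium markers to 189 and 419 CPM, whereas naïve markers summed to 620 and 556 CPM. Ganglion-like cells themselves held 36.2 and 41.8 CPM of Igfbp4. The part of RNA from other cells in the macrophage-like difference was not tested. Sclt1, Nck1 and Scaf4 were most like it (r = 0.970, 0.968 and 0.966, and 0.829, 0.857 and 0.847 over DKO clusters).

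Igfbp3, the main carrier of IGFs in blood, was nearly absent, with 57 UMIs in the control and 60 in the DKO library. A small group of mesenchymal cells within the margin-like class held 13 of the 24 Igfbp3 UMIs of DKO margin-like cells. This group, singled out after its values were seen, formed a cluster of its own at resolution 1 (4 control and 32 DKO cells, all in the margin-like class) and expressed Col3a1, Col1a2 and Lum, with 269, 194 and 98 UMIs in the DKO cells. In the DKO cells it had 1170 CPM (1030 to 1325) of Igfbp2, 463 CPM (377 to 564) of Igfbp5, 239 CPM of Igfbp4, 70.2 CPM of Igf1 and 60.9 CPM (32.4 to 104) of Igfbp3, and the 4 control cells had 977 CPM (692 to 1342) of Igfbp2. Without it, margin-like cells had log2 ratios of −0.17 for Igfbp2, 0.61 for Igfbp5 and 1.41 for Igf2r. The genes most like Igfbp3 (Crim1, Synm and Samd5, r = 0.767, 0.763 and 0.761, and 0.313, 0.003 and 0.677 over DKO clusters) rest on a maximum of 1.56 CPM over control clusters.

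The counts of members past 2-fold rest on 4 to 9 members a class (plot of ratios by class). They include Igfbpl1 in lens-like, margin-like and naïve-like cells, where it lay under the red blood-like level, to which low-RNA cluster 12 gave most UMIs. They also include Igfbp7 in ganglion-like cells, where it was under 2-fold without called doublets. Only genes with at least 30 UMIs in either library of a class were counted, so that a member could be counted through the library where it was high. In lens-like cells 2 of 8 counted members were at least 2-fold higher in the DKO and 0 lower (Igfbp5 and Igfbpl1), against 5.08% of 8782 genes past 2-fold in either direction. In margin-like cells 3 of 8 were higher (Igf1, Igf2r and Igfbpl1) against 5.17%, and in naïve-like cells 2 of 9 were higher (Igf1 and Igfbpl1) and 1 lower (Igf2, whose counts cannot be read as a level) against 4.41%.

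In neurogenic-like cells 1 of 6 counted members was higher (Igfbpl1) and 1 lower (Igfbp5), against 4.95% of all genes. In ganglion-like cells 2 of 8 were higher (Igf1 and Igfbp7) and 1 lower (Igfbp5) against 5.52%, in amacrine or horizontal-like cells 1 of 6 was lower (Igfbp5) against 3.51%, and in photoreceptor-like cells 1 of 4 was higher (Igfbpl1) and 1 lower (Igfbp5) against 2.26%. In macrophage-like cells 3 of 5 were higher (Igfbp2, Igfbp4 and Igfbpl1), against 9.54%. Each of these fell under 2-fold in an alternative, as did Igfbp2 (29.8 and 62.7 CPM from 9 and 45 UMIs, log2 ratio 1.07, 0.02 to 2.29) at 0.84 with the red blood-like level subtracted. The median log2 ratio of the counted members was 0.55 in lens-like cells, where that of all genes was 0.20, 0.51 in margin-like (0.03), 0.56 in naïve-like (0.02), −0.09 in neurogenic-like (0.02), 0.07 in ganglion-like (0.05) and 1.07 in macrophage-like cells (0.07). It was −0.06 in amacrine or horizontal-like (−0.02) and 0.48 in photoreceptor-like cells (0.01).

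**Figure D5:**
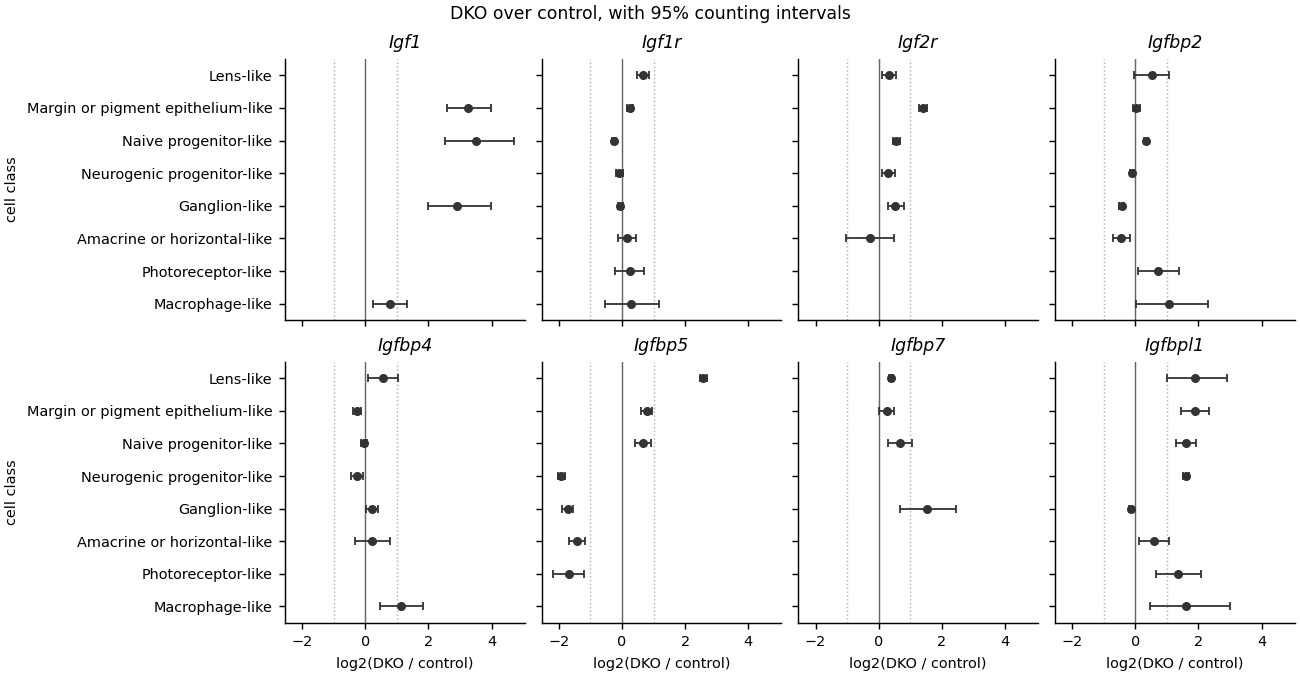
Log2 ratio of the DKO over the control level of 8 members (panels) in each class where the gene had at least 30 UMIs in either library, with 95% counting intervals and dotted lines at 2-fold. Igfbp5 lies at 2.58 in lens-like cells and between −1.93 and −1.42 in the 4 neurogenic-like and neuron-like classes, and Igf1r stays within 2-fold in every class.

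The other genes of the pathway were counted in the same way. Of 37 listed (other ligands and receptors, proteases, adaptors, kinases, binders of Igf2 mRNA and imprinted growth genes), 22 were counted in lens-like, 28 in margin-like, 29 in naïve-like, 25 in neurogenic-like and 29 in ganglion-like cells. In that order, 0, 1, 2, 2 and 3 of them were at least 2-fold higher and 1, 1, 2, 2 and 2 at least 2-fold lower, to be read against the shares of all genes given above (5.08%, 5.17%, 4.41%, 4.95% and 5.52%). Their median log2 ratios lay at 0.21 in lens-like, −0.01 in margin-like, −0.12 in naïve-like, −0.17 in neurogenic-like and −0.10 in ganglion-like cells.

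Of those with at least 20 CPM in either library, the adaptor of the IGF receptor Irs1 went from 20.4 to 9.91 CPM in lens-like and from 23.8 to 48.6 CPM in margin-like cells. The imprinted growth gene H19 went from 83.6 to 30.8 CPM in naïve-like and from 27.2 to 10.8 CPM in neurogenic-like cells. Lens-like cells held 903 and 1008 CPM of H19. In naïve-like cells the lens markers summed to 298 and 110 CPM (1 of 11 higher in the DKO library), and the part of lens RNA in this was not tested. Mest went from 626 to 299 CPM in margin-like cells. Cdkn1c, an imprinted inhibitor of the cell cycle, went from 140 to 511 CPM in neurogenic-like cells (log2 ratio 1.87, 1.79 to 1.96), and Pappa2, a protease of IGFBP5, went from 31.1 to 15.4 CPM in ganglion-like cells. In macrophage-like cells H19 had 6 control and 50 DKO UMIs.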

How the data were processed

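Single-cell libraries (10x Genomics 3′ kit) were made from control and DKO eyecups. Per the labels, the authors processed reads with Cell Ranger 3.1.0 against mm10 and deposited UMI counts per gene and cell, not normalized. How reads that fit several genes were treated is not given in the sources used here.

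Following the filter of the study, a cell was kept if it had over 200 but under 6000 detected genes and if mitochondrial genes gave under 20% of its UMIs. They were clustered in Seurat 5.3.0 (R 4.3.3) by anchor integration with 2000 variable genes, 20 dimensions and resolution 0.5. The members, the pathway list, Six3, Six6, hemoglobin and sex-linked genes and the genes that the paper names in its results were left out of the variable genes. A cluster was named from marker lists where at least 75% of the markers were above the other cells and its leading 10 genes held no more markers of another class. Scrublet, run in scanpy 1.11.5 with the lower of the library thresholds (0.225) for both, called 300 control (3.05%) and 329 DKO cells (2.71%) doublets, which were kept in the values.

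Levels are summed UMIs of a class per 1000000 UMIs (CPM), with exact Poisson 95% intervals. Ratios have exact binomial intervals of the split of UMIs, and shares of cells have exact Clopper-Pearson intervals after thinning cells to 2000 UMIs (Python 3.11.15, numpy 2.4.6, scipy 1.17.1, pandas 2.3.3). All cover counting error only. With 1 library per genotype, no test was made. Each member is named in every class, along with the 3 genes of highest Pearson correlation of log2(CPM + 1) over control clusters of at least 50 cells, among genes with at least 50 CPM in such a cluster. Correlations over clusters share libraries and depth and are descriptions.

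Other pathway genes are named if past 2-fold with at least 20 CPM in either library. Members, lists and rules were chosen with earlier results of these data known. Alternatives covered clustering (genes, resolution 0.3 and 1, no integration, another linear algebra kernel), doublets, a minimum of 1000 genes, totals, equal weights for cells, a pseudocount of 10 CPM, subtraction of the red blood-like level, Six3-low DKO cells, a limit of 1.5-fold, at least 100 UMIs, and no thinning or thinning to 4000 UMIs. Added after seeing the data were a lens-like class without its low-RNA cluster or with cells under 6% crystallin UMIs alone, a margin-like class without mesenchymal cells, a naïve-like class with cluster 1, and the removal of shared barcodes.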

Additional observations from a re-analysis of the deposited data

Results flagged for a closer look

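Igfbp5 differed in opposite directions between lens-like cells and the neurogenic-like and neuron-like cells of the same libraries. The log2 ratio of the DKO over the control level was 2.58 in lens-like cells. It was −1.93 in neurogenic progenitor-like, −1.72 in ganglion-like, −1.42 in amacrine or horizontal-like and −1.68 in photoreceptor-like cells. The difference between these classes was not tested, as each genotype had 1 library.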

How the results depend on the processing

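With the red blood-like level subtracted, Igfbpl1 in lens-like, naïve-like and margin-like cells and Igfbp2 in lens-like cells had no value, as both libraries were at or under that level. The share of ganglion-like cells with an Igf2r UMI was 2.19% in the control and 4.88% in the DKO library after thinning. Without thinning it was 14.6% and 14.4%, and DKO minus control was −0.2 percentage points. Cluster 16, with 88.7% called doublets, held 224 of the 455 DKO Igf2r UMIs of ganglion-like cells (log2 ratio 1.13, 0.66 to 1.63). Ganglion-like clusters 6 and 7 had log2 ratios of 0.20 (−0.21 to 0.63) and −0.07 (−0.56 to 0.45). Other shares turned too, such as that of Igfbp2. In margin-like cells it was 19.1% and 20.3% after thinning but 56.7% and 48.7% without. In naïve-like cells it was 20.2% and 23% after thinning but 63.3% and 60.5% without. The number of members past 2-fold became 1 in lens-like cells without doublets, with the pseudocount, with the red blood-like level subtracted, with at least 100 UMIs and without the low-RNA cluster. It became 1 in photoreceptor-like cells without integration, with cells weighted equally, with the subtraction and with at least 100 UMIs, and 1 in macrophage-like cells without integration, with the subtraction and with at least 100 UMIs. In naïve-like cells it was 0 with the pseudocount, 5 at a limit of 1.5-fold and 1 with at least 100 UMIs, in ganglion-like cells 1 with the pseudocount, in neurogenic-like cells 4 at resolution 0.3, and in amacrine or horizontal-like cells 2 at 1.5-fold. The cause was not tested.

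Over the alternatives, the log2 ratio of Igfbp5 ranged from 1.81 to 2.85 in lens-like and from −2.68 to −1.81 in neurogenic-like cells, that of Igf2r in margin-like cells from 0.99 to 1.75, and that of Igf1 in margin-like cells from 1.30 to 3.55. Without integration, the margin-like ratio was −0.23 for Igfbp5 and −1.32 for Igfbp7. The Six3-low alternative could not be run in neurogenic-like and ganglion-like cells, which had under 50 such cells. No paired analysis was possible because there was 1 library of each genotype. Depth limits Igf1 and Igfbp3, which had at most 640 UMIs in a library, whereas the Igf2 counts cannot be read as a level.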

Other observations

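Cluster 10, which held 798 DKO cells and 1 control cell and was given no name, combined its high Igfbpl1 with 285 CPM (268 to 303) of Igfbp2 and 177 CPM (164 to 191) of Igf1r. Its Igfbp5 level was 6.58 CPM (4.26 to 9.72), near the 7.64 CPM of DKO red blood-like cells. As the control library had 1 such cell, no ratio is given.

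Cluster 1, with all 10 naïve markers but no name, had 3 of 7 counted members at least 2-fold higher in the DKO library, where 289 of 10713 counted genes were higher and 164 lower. Igfbp5 went from 6.09 to 21 CPM (log2 ratio 1.79, 1.34 to 2.26), Igfbp7 from 2.37 to 5.43 CPM and Igfbpl1 from 4.17 to 14.7 CPM. The DKO red blood-like cells had 53 CPM of Igfbpl1, most of it from low-RNA cluster 12, and 2.32 CPM of Igfbp7.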
